A study of Homo sapiens with 24 samples.

Results

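Transcripts of the nuclear genes for subunits of the oxidative phosphorylation (OXPHOS) complexes were followed in MB468 and MB468res-R8 cells during methionine (Met) stress. The members are the gene entries of the count matrix whose symbols follow the naming scheme of NADH dehydrogenase (NDUFA, NDUFB, NDUFC, NDUFS and NDUFV genes), succinate dehydrogenase (SDHA to SDHD), the cytochrome bc1 complex (UQCR genes), cytochrome c oxidase (COX5 to COX8 genes) and ATP synthase (ATP5 genes). Of 26645 gene entries, 83 carried such a name. ATP5S, ATP5SL and the read-through entry ATP5J2-PTCD1 are no subunits of the enzyme and were left out, which left 80 members. These were 36 genes of complex I, 4 of complex II, 9 of complex III, 15 of complex IV and 16 of complex V, and 72 of them passed the filter on low counts. NDUFA4, named after complex I, was counted with complex IV, where the protein is now placed. The naming scheme does not take in COX4I1, NDUFAB1, CYC1 and COX7A2L, and the mitochondrially encoded subunits were not analysed here.

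MB468 is MDA-MB-468, a triple-negative breast cancer cell line that needs Met to proliferate, and MB468res-R8 (MDA-MB-468res-R8) is 1 revertant clone of it that can grow on the precursor homocysteine (Hcy) in place of Met. Both lines were kept in the same medium with dialyzed serum, vitamin B12, glutamine and cysteine, with 100 µM Met at 0 h (Met+), and were collected 0.5, 2 and 12 h after a switch to medium with 370 µM DL-homocysteine and no Met (Met-Hcy+). Each of the 8 groups had 3 libraries, 24 in all, and whether these came from separate cultures is not stated in the labels, so p-values measure the spread between these libraries. No group was kept in Met+ medium for 12 h, so Met stress and time in culture cannot be told apart in either line.

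OXPHOS complexes sit in the inner mitochondrial membrane. Complexes I and II take electrons from NADH and succinate and hand them to ubiquinone, complex III passes them to cytochrome c, and complex IV passes them to oxygen. Complexes I, III and IV move protons across the membrane, and complex V uses the returning protons to make ATP. Complex II is wholly nuclear encoded, whereas the other complexes combine nuclear subunits with subunits encoded in mitochondrial DNA. In many nuclear OXPHOS genes the promoter holds sites for the factors NRF1, GABP (an ETS family factor) and YY1, and coactivators of the PGC-1 family, such as PPARGC1A, are known to raise their transcription.

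The libraries held between about 11745600 and 36496700 counts in all, spike-ins included, with a median of 20503800. Epithelial genes were detected in every library, with EPCAM between 286 and 437 CPM (counts scaled to a common library total) and EGFR between 2102 and 4278 CPM. PTPRC, which marks leukocytes, reached at most 0.199 CPM, and PGR, the progesterone receptor, at most 0.0983 CPM. Of the fibroblast collagen genes COL1A2 reached at most 0.0616 CPM, whereas COL1A1 ranged from 14.6 to 73.2 CPM, and PECAM1, an endothelial marker, ranged from 0.344 to 2.67 CPM. The part of these genes' source in the results was not tested. ESR1 ranged from 4.15 to 22.6 CPM and ERBB2 from 38.3 to 97.3 CPM. The 80 members together took between 0.852 and 0.864% of all gene counts in MB468 at 0 h and between 0.714 and 0.72% at 12 h, with no overlap between the groups. In MB468res-R8 this share lay between 0.869 and 0.905% at 0 h and between 0.87 and 0.9% at 12 h, and the groups overlapped.

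Counts were scaled by edgeR's TMM factors. A normalized count is a count divided by the scaled library size and multiplied by the mean scaled size, and each member is compared only with itself. To follow the complexes over time, each tested member was set against its mean in MB468 at 0 h on the log2 scale, and the median over the members of a complex was taken in each library. At 0.5 and 2 h in MB468 these medians stayed near 0, with group means between 0.0048 (complex II at 0.5 h) and 0.05 (complex III at 2 h). At 12 h the median of complex III was -0.54 ± 0.0659 (SD, n = 3), that of complex II -0.44 ± 0.0232, that of complex V -0.33 ± 0.0102, that of complex IV -0.26 ± 0.0208 and that of complex I -0.23 ± 0.0211. Every MB468 library at 12 h lay below every MB468 library at the earlier times in each of the 5 complexes. In MB468res-R8 at 12 h, on the same scale, complex III had a median of 0.09 ± 0.00356, complex V 0.08 ± 0.0497, complex II 0.04 ± 0.0259, complex I -0.00028 ± 0.0130 and complex IV -0.01 ± 0.0497, all above the MB468 libraries of that time. In the same order, the medians of MB468res-R8 at 0 h were 0.02, 0.05, 0.0038, 0.07 and 0.11. Its libraries at 12 h lay below those at 0 h in complex IV and above them in complexes II and III. In complexes I and V they overlapped.

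**Figure D1:**
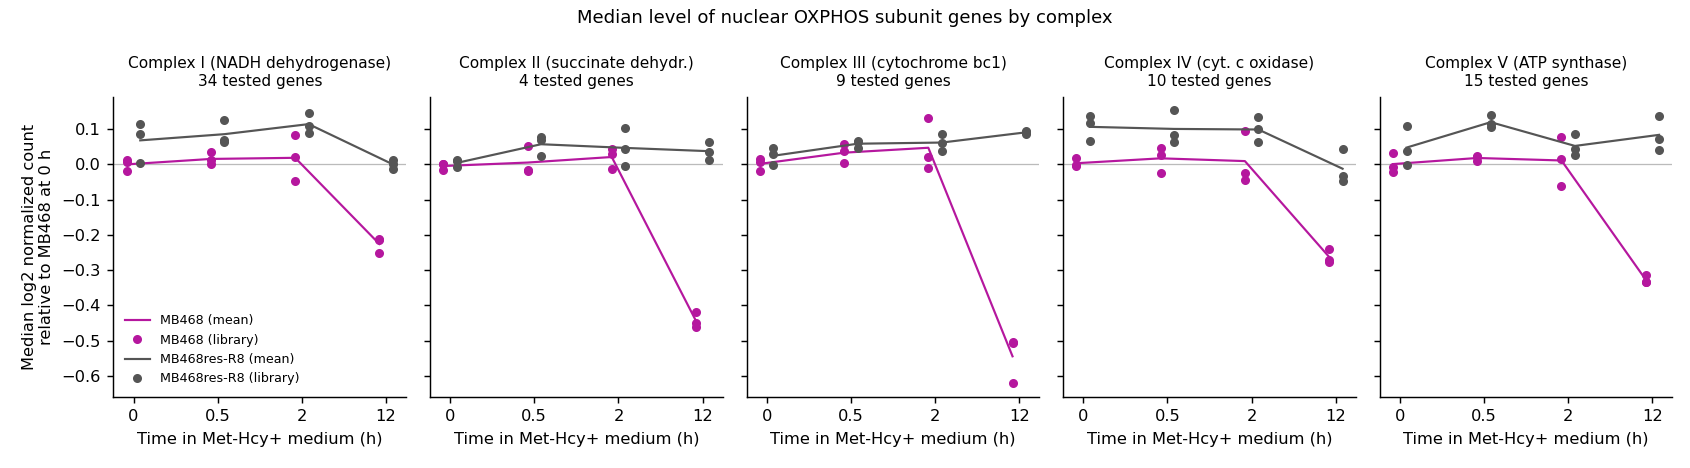
Median over the tested genes of each complex of the log2 normalized count relative to the mean of MB468 at 0 h, in each library (points) with the group mean (lines), against the time in Met-Hcy+ medium in hours (evenly spaced, not to scale). MB468 falls below all its earlier libraries at 12 h in each complex, most in complex III at -0.54. The group means of MB468res-R8 lie between -0.01 and 0.09 at 12 h, and between 0.0038 and 0.11 at 0 h. Values are on the TMM scale.

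In MB468, 57 of the 72 tested members fell at 12 h and 1 rose. None of the 57 had libraries at 12 h that overlapped those at 0 h. This was not counted over all called genes, so it adds no support to the calls. Over all 14741 tested genes 34.7% were called lower and 36.1% higher, where called means an edgeR quasi-likelihood p under 0.05 after adjusting all of them by the Benjamini-Hochberg method. The median log2 fold change of the members was -0.26, against 0.01 over all genes. Without regard to sign, the median log2 change was smaller for the members, at 0.26 against 0.44 over all genes. Of the 72 members 0 were called with a change of 2-fold or more, against 2351 of the 14741 genes. By complex, 24 of 34 members fell in complex I (median -0.22), 4 of 4 in complex II (median -0.44), 6 of 9 in complex III (median -0.56), 8 of 10 in complex IV (median -0.26) and 15 of 15 in complex V (median -0.32). With spike-in totals as library sizes, the median of all genes in this comparison moved from 0.01 to -0.23, 62 members were called lower and 0 higher, and the members' median was -0.50. The share of all genes called was not counted with spike-in library sizes, here or below.

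Complex I has a peripheral arm, with the NADH site and the iron-sulfur clusters that lead to ubiquinone, and a membrane arm. The largest fall of the complex in MB468 was that of NDUFS1, a core subunit of the peripheral arm. NDUFS1, the large iron-sulfur subunit, had 3847, 3617 and 3555 normalized counts at 0 h and 2068, 2149 and 1999 at 12 h. All of its libraries at 12 h lay well below those at 0 h, and the log2 fold change was -0.83 ± 0.0463 (SE, edgeR adjusted p = 3.46e-19). NDUFV2, an iron-sulfur subunit near the NADH site, changed by -0.57 ± 0.0528 on the log2 scale, whereas NDUFV1, which binds NADH and the flavin, changed by -0.18 ± 0.0370, from 4518, 4598 and 4446 to 4054, 4003 and 3904 normalized counts. Both fell, and neither had overlapping groups.

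In the membrane arm of complex I, the accessory subunits NDUFB5 and NDUFB4 had log2 fold changes of -0.74 ± 0.0651 and -0.60 ± 0.0473 in MB468. NDUFA9, at the junction of both arms, changed by -0.51 ± 0.0531. The 9 members of complex I that were not called were NDUFC2, NDUFA11, NDUFA12, NDUFA13, NDUFA7, NDUFS4, NDUFS6, NDUFB10 and NDUFA8, with log2 fold changes between -0.22 (NDUFC2, the shallowest of the tested members, which overlaps a read-through entry) and 0.07 (NDUFA8). NDUFV3, an accessory subunit near the NADH site, was the member that rose. It had 1016, 1009 and 927 normalized counts at 0 h and 1159, 1116 and 1201 at 12 h, with all libraries at 12 h above those at 0 h and a log2 fold change of 0.23 ± 0.0545 (SE, edgeR adjusted p = 2.26e-04), which turned to -0.00462 with spike-in totals as library sizes.

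All 4 subunits of complex II, which is also an enzyme of the tricarboxylic acid (TCA) cycle, fell in MB468. SDHC, a membrane anchor, had 1603, 1569.7 and 1654 normalized counts at 0 h and 931, 1016 and 969 at 12 h, with a log2 change of -0.73 ± 0.0534 (SE, edgeR adjusted p = 1.72e-15). SDHA, the flavoprotein that oxidises succinate, went from 8550.2, 8093 and 8055 to 5872, 6004 and 5981 normalized counts, a log2 fold change of -0.47 ± 0.0384. SDHA has several near-identical pseudogene copies, between which reads could be split. SDHB, the iron-sulfur subunit, changed by -0.42 ± 0.0457 and SDHD, the other anchor, by -0.11 ± 0.0448 on the log2 scale. The call of SDHD was lost without replicate 1 or 2 of MB468 at 0 h or replicate 2 or 3 at 12 h, with log2 fold changes of -0.11 to -0.098. The anchors had the largest and the smallest fall of the complex, and the groups did not overlap in any of the 4.

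In complex III the matrix-facing core proteins fell and the Rieske subunit did not pass the test. UQCRC1 had 4439.8, 4245 and 4261 normalized counts in MB468 at 0 h and 2519, 2567 and 2673 at 12 h, with a log2 change of -0.74 ± 0.0440 (SE, edgeR adjusted p = 2.66e-18). UQCRC2 had 4026, 4025 and 3962 and 2553, 2719 and 2616 normalized counts, a log2 fold change of -0.61 ± 0.0385 (SE, edgeR adjusted p = 1.70e-17). Neither core gene had overlapping groups. UQCRFS1, the Rieske iron-sulfur protein that takes electrons from ubiquinol, had 3573, 3540.2 and 3468 normalized counts at 0 h and 3548, 3611 and 3508 at 12 h, and the groups overlapped, with a log2 fold change of 0.01 ± 0.0577 (SE, edgeR adjusted p = 0.879). The small subunits UQCR11, UQCR10, UQCRB and UQCRQ fell, with log2 fold changes of -0.69, -0.60, -0.56 and -0.36. UQCRH, the hinge protein of the cytochrome c1 site, and its near-identical copy UQCRHL, between which reads could be split, were not called, at -0.04 ± 0.0379 and -0.13 ± 0.0679.

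Among the subunits of complex IV in MB468, COX7B showed the largest fall. It had 1713, 1827 and 1811 normalized counts at 0 h and 1279.8, 1192 and 1238 at 12 h, without overlap, and a log2 fold change of -0.53 ± 0.0515 (SE, edgeR adjusted p = 7.06e-12). COX6C and COX7C, also small membrane subunits, changed by -0.48 ± 0.0442 and -0.41 ± 0.0589. COX5A, which sits on the matrix side, went from 1777, 1698 and 1762 to 1441, 1469 and 1459 normalized counts, a log2 fold change of -0.26 ± 0.0596 (SE, edgeR adjusted p = 1.93e-04). COX8A and COX5B were not called. COX8A was called in 2 of the 6 fits that left out 1 library (-0.12 to -0.038 over the 6). COX7A2, at -0.11, lost its call in 4 of 6 such fits (-0.14 to -0.12 over the 6). With spike-in totals as library sizes 9 of the 10 tested members of the complex were called lower. COX5B was the least precise member, with 2139, 1380.1 and 1778 normalized counts at 0 h, 1807, 2019 and 1853 at 12 h, and a log2 fold change of 0.10 ± 0.204.

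Complex V fell as a whole in MB468, with log2 fold changes between -0.86 and -0.20 over its 15 tested members. ATP5C1, the gamma subunit of the rotating central stalk, had the largest fall of all members, from 7570.4, 7778 and 7496 normalized counts at 0 h to 4219, 4235 and 4152 at 12 h. The 3 libraries at 12 h lay close together, far below those at 0 h, and the log2 fold change was -0.86 ± 0.0439 (SE, edgeR adjusted p = 2.04e-20). ATP5A1, the alpha subunit of the catalytic head, went from 11019.5, 11354 and 10876 to 7106, 7123 and 6978 normalized counts, a log2 fold change of -0.65 ± 0.0412 (SE, edgeR adjusted p = 1.96e-17). ATP5B, the beta subunit that pairs with it, went from 17689, 18646 and 17735 to 16049, 15743 and 15235, a log2 fold change of -0.20 ± 0.0391 (SE, edgeR adjusted p = 1.79e-05). Alpha and beta subunits alternate in 1 ring, and in MB468 the libraries at 0 and 12 h did not overlap for either gene. In the peripheral stalk, ATP5F1 (subunit b) and ATP5O (OSCP) changed by -0.52 ± 0.0423 and -0.39 ± 0.0478 on the log2 scale.

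**Figure D2:**
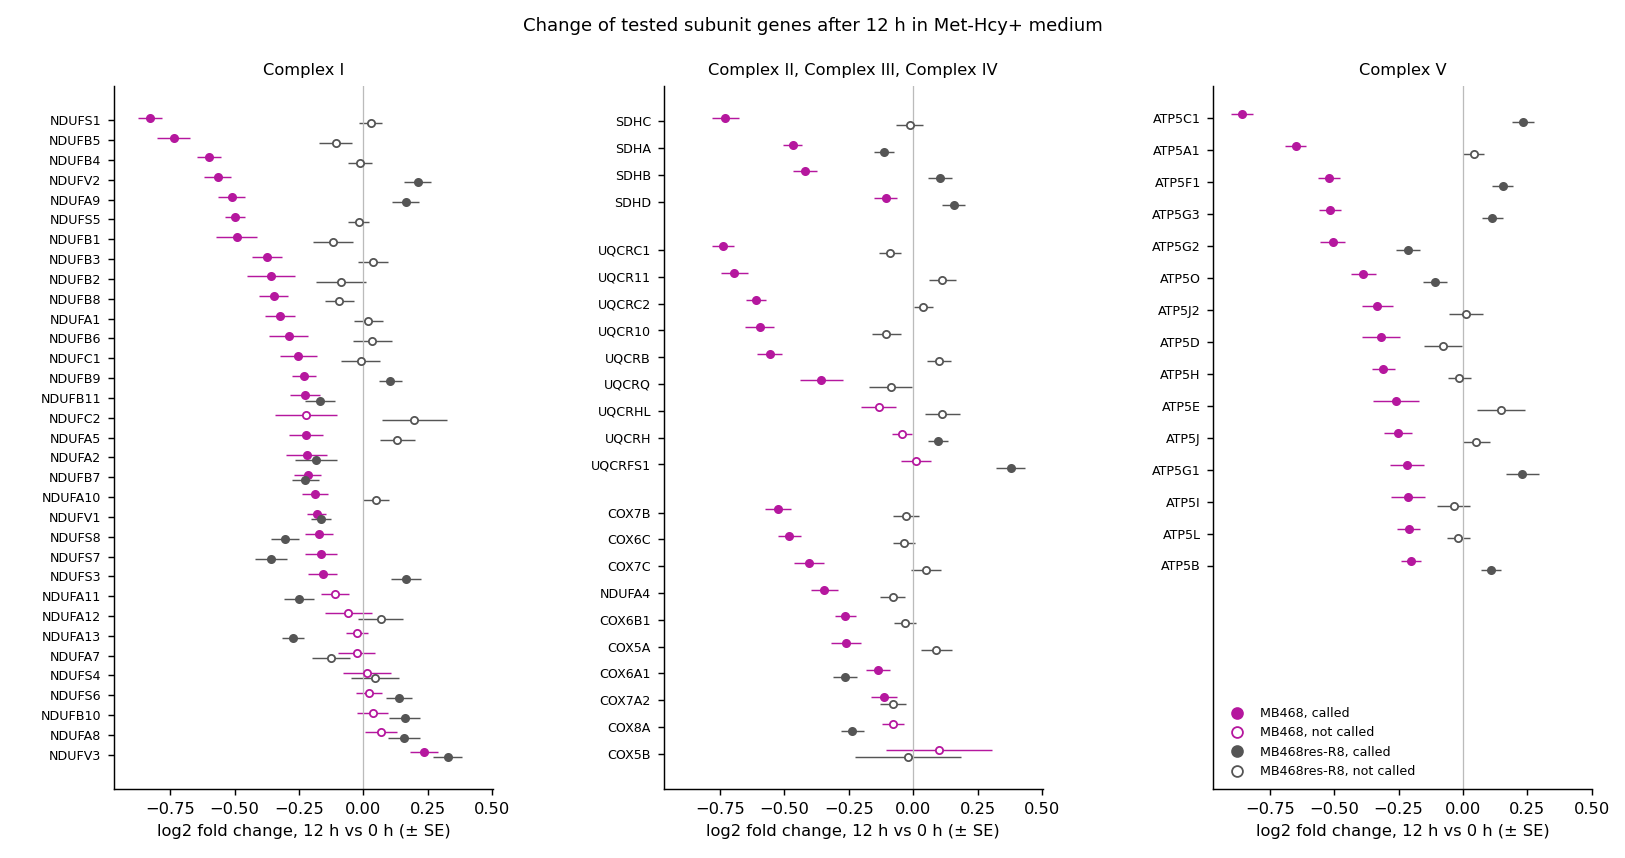
Log2 fold change with its standard error of 71 of the 72 tested members at 12 h against 0 h in MB468 and MB468res-R8 (edgeR, TMM scale), ordered by the MB468 value within each complex, with filled points for called members. Of all 72, in MB468 57 are called lower and NDUFV3, whose value turns to -0.00462 with spike-in library sizes, higher, and in MB468res-R8 17 are called higher and 14 lower.

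MB468res-R8 showed no common direction at 12 h: 17 members were called higher and 14 lower, with a median log2 fold change of -5.3e-05, against -0.02 over all genes. Over all genes 30.2% were called higher and 31.1% lower in this comparison. The counts depended on single libraries and on scaling. Without replicate 2 of MB468res-R8 at 0 h 10 members were called higher, without replicate 2 at 12 h 11, and with spike-in totals as library sizes 2 were called higher (UQCRFS1 and NDUFV3) and 1 lower (NDUFS7). With spike-in library sizes the members' median was 0.023. The MB468res-R8 libraries at 12 h held 77305, 46305 and 60540 spike-in counts beside 26083200, 20400100 and 24552600 gene counts. The part of this spread in the lost calls was not tested. Complex medians lay between -0.03 (complex IV, 0 higher and 2 lower) and 0.10 (complex III, 2 higher and 0 lower).

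UQCRFS1, which did not pass the test in MB468, showed the largest rise in MB468res-R8. It had 3640.0, 3238 and 3291 normalized counts at 0 h and 4242, 4613 and 4389 at 12 h, without overlap, and a log2 fold change of 0.38 ± 0.0580 (SE, edgeR adjusted p = 1.33e-06). NDUFV3 went from 977, 1016 and 1021 to 1299, 1229.9 and 1246 normalized counts, a log2 fold change of 0.33 ± 0.0552 (SE, edgeR adjusted p = 2.47e-06). ATP5C1, the member with the largest fall in MB468, rose in MB468res-R8 from 9176, 8473 and 8839 to 10021, 10800.1 and 10295, a log2 fold change of 0.23 ± 0.0430 (SE, edgeR adjusted p = 1.24e-05). ATP5G1, which encodes the c subunit of the rotor ring, rose as well, at 0.23 ± 0.0651 (SE, edgeR adjusted p = 0.00249), with all 12 h libraries above those at 0 h.

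The falls in MB468res-R8 were led by NDUFS7 and NDUFS8, the iron-sulfur subunits at the ubiquinone end of the peripheral arm of complex I. NDUFS7 had 1492, 1541 and 1446 normalized counts at 0 h and 1266, 1125 and 1102 at 12 h, with a log2 change of -0.36 ± 0.0626 (SE, edgeR adjusted p = 4.87e-06). NDUFS8 had 2251, 2435 and 2250.3 and then 1986, 1786 and 1835, a log2 fold change of -0.31 ± 0.0552 (SE, edgeR adjusted p = 8.63e-06). Both were also called lower in MB468, at -0.17 and -0.17. NDUFA13, a membrane arm subunit also known as GRIM-19, and COX6A1, a subunit of complex IV, changed by -0.27 ± 0.0425 and -0.26 ± 0.0454, and neither had overlapping groups. Of the core subunits, NDUFV1 (-0.16) and SDHA (-0.11) fell and SDHB (0.10), SDHD (0.16) and ATP5B (0.11) rose in MB468res-R8, whereas NDUFS1, SDHC, UQCRC1, UQCRC2, COX5A, COX5B and ATP5A1 were not called, with log2 fold changes between -0.09 and 0.09. Several of these calls turned on single libraries of MB468res-R8. SDHB was not called without replicate 2 or 3 at 0 h or replicate 2 at 12 h (0.055 to 0.12), ATP5B without replicate 2 at 0 h (0.075) or replicate 2 at 12 h (0.082), and SDHA without replicate 1 at 0 h (-0.085) or replicate 2 at 12 h (-0.088). COX5A was called higher without replicate 1 at 0 h (0.17) or replicate 1 at 12 h (0.15), and ATP5A1 without replicate 1 at 0 h (0.11). With spike-in library sizes none of these core subunits was called in MB468res-R8.

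The responses of the lines were compared directly in the same model, by subtracting the log2 fold change of MB468 from that of MB468res-R8. For this 12 h difference 51 of 72 members were called higher and 2 lower. Higher means a more positive change from 0 h in MB468res-R8 than in MB468, not a higher level at 12 h. Over all genes 26.2% were called higher and 30.3% lower. The median difference of the members was 0.31 on the log2 scale, against -0.05 over all genes, and by complex it was 0.49 (complex III, 9 of 9 called higher), 0.44 (complex II, 4 of 4), 0.31 (complex V, 14 of 15), 0.25 (complex I, 18 of 34) and 0.25 (complex IV, 6 of 10). Without regard to sign, the median was 0.31 for the members and 0.41 over all genes. A called difference of 2-fold or more was found for 1 member, against 1793 of 14741 genes. With spike-in totals as library sizes the median of all genes moved to 0.20, 51 members were called higher and 0 lower, and the median of the members was 0.57.

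The largest difference was that of ATP5C1, at 1.09 ± 0.0614 (SE, edgeR adjusted p = 2.34e-18) on the log2 scale. NDUFS1 followed at 0.86 ± 0.0651 (SE, edgeR adjusted p = 1.65e-14), then UQCR11, a small subunit of complex III, at 0.81 ± 0.0758 (SE, edgeR adjusted p = 5.63e-12) and NDUFV2 at 0.78 ± 0.0741 (SE, edgeR adjusted p = 1.23e-11). SDHC differed by 0.71 ± 0.0755, ATP5A1 by 0.69 ± 0.0580, UQCRC1 by 0.65 ± 0.0617 and UQCRC2 by 0.65 ± 0.0541, all called. Of the core subunits, NDUFV1 (0.02 ± 0.0527) and COX5B (-0.12 ± 0.289) were not called for the difference. The members called lower were NDUFA13, at -0.25 ± 0.0599 (SE, edgeR adjusted p = 5.36e-04), and COX8A, at -0.16 ± 0.0619 (SE, edgeR adjusted p = 0.0273). Both came to lie at or above 0 with spike-in totals as library sizes, at 0.0055 and 0.10, and COX8A also lost its call, at -0.15 to -0.089, without replicate 2 or 3 of MB468 at 0 h, replicate 1 or 3 of MB468 at 12 h, replicate 1 of MB468res-R8 at 0 h, or any 1 library of MB468res-R8 at 12 h. In all, 1 member was called lower without replicate 2 or 3 of MB468 at 0 h, replicate 3 of MB468 at 12 h, replicate 1 of MB468res-R8 at 0 h, or replicate 2 or 3 of MB468res-R8 at 12 h.

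Set side by side, 11 members fell in MB468 and rose in MB468res-R8, 11 fell in both lines, and 35 fell in MB468 and were not called in MB468res-R8. Of the 57 members that fell in MB468, 47 were also called for the difference, and the 6 libraries of each comparison are also part of that difference. Over all genes 34.7% were called lower in MB468, and 30.2% higher and 31.1% lower in MB468res-R8. The shares of all genes with such combined calls were not counted. The 11 that went opposite ways were NDUFV2, NDUFA9, NDUFB9 and NDUFS3 of complex I, SDHB and SDHD of complex II, and ATP5C1, ATP5F1, ATP5G1, ATP5G3 and ATP5B of complex V. NDUFS3, a subunit of the peripheral arm, changed by -0.16 ± 0.0568 in MB468 and by 0.17 ± 0.0566 in MB468res-R8. Of the 11 that fell in both, 4 were called for the difference. With spike-in totals as library sizes 11 of the 11 opposite-way members were called lower in MB468 but 0 higher in MB468res-R8, and NDUFS7 was the 1 member called lower in both lines. On the TMM scale the calls of SDHD in MB468, and of SDHB, ATP5B and ATP5G3 in MB468res-R8, also depended on single libraries, ATP5G3 on replicate 2 of MB468res-R8 at 0 h (0.073 without it).

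**Figure D3:**
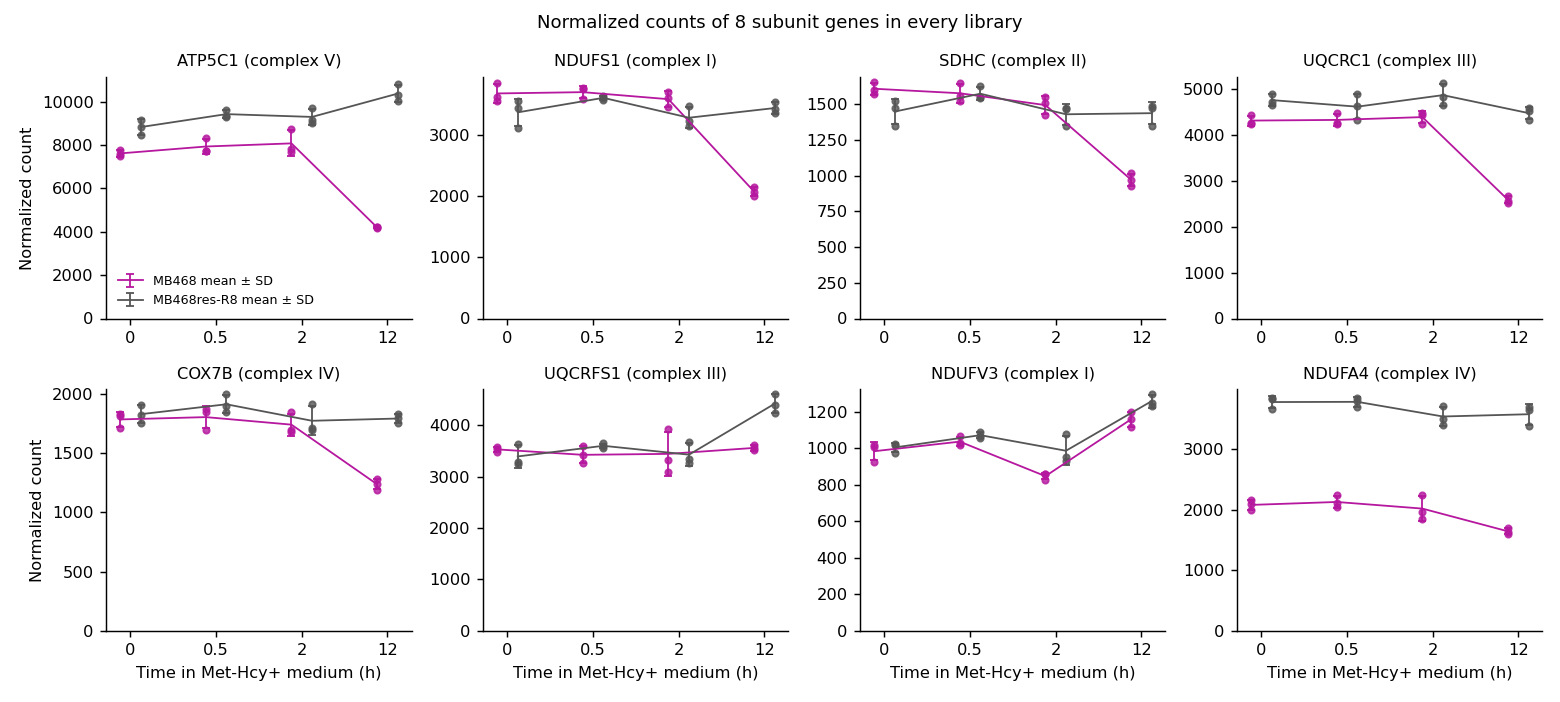
Normalized counts (axis from 0) of 8 members in every library (points) with the group mean and SD (n = 3), against time in Met-Hcy+ medium in hours (evenly spaced, not to scale), for MB468 and MB468res-R8. ATP5C1, NDUFS1, SDHC, UQCRC1 and COX7B fall at 12 h in MB468, UQCRFS1 is called higher at 12 h in MB468res-R8, NDUFV3 is called higher in both lines (in MB468 not with spike-in library sizes), and NDUFA4 lies higher in MB468res-R8 at every time.

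Since the members of complexes II and V moved together in MB468, the promoters were searched for the letters of 3 factor motifs that are known from OXPHOS genes. RefSeq promoter windows (GRCh38.p14, 250 bases before to 50 bases after the transcription start, 300 in all) were found for 65 of the 80 members, and both strands were searched for GCGCATGCG (NRF1), CCGGAAG (ETS) and AAGATGGCG (YY1). The windows of 3 members with large falls in MB468, ATP5C1, NDUFS1 and UQCRC1, hold 1 kind of match each, and that of NDUFA8, which was not called in MB468 and rose in MB468res-R8 (0.16 ± 0.0620), holds the same NRF1 letters as ATP5C1. They are shown 5′ to 3′ on the strand of the gene, with matches in capitals (in NDUFS1 the capitals read on the opposite strand).
ATP5C1 (chr10:7787927-7788226, plus strand): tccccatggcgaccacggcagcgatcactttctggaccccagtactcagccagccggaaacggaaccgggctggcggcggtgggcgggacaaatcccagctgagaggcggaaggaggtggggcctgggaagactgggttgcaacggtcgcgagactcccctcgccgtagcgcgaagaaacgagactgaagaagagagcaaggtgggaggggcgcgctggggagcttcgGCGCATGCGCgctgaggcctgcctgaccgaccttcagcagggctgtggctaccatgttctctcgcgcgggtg
NDUFS1 (chr2:206159395-206159694, minus strand): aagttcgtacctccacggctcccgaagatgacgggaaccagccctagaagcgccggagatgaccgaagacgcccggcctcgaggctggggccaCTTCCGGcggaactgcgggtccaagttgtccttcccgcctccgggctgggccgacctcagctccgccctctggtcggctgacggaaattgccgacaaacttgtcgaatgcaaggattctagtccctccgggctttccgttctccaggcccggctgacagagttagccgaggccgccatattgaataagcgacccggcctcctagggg
UQCRC1 (chr3:48609597-48609896, minus strand): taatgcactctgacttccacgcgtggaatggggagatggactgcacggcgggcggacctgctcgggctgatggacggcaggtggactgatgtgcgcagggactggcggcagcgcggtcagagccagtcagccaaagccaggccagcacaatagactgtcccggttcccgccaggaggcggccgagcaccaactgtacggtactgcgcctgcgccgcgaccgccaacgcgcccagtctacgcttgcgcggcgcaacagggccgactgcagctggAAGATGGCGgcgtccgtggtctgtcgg
NDUFA8 (chr9:122159730-122160029, minus strand): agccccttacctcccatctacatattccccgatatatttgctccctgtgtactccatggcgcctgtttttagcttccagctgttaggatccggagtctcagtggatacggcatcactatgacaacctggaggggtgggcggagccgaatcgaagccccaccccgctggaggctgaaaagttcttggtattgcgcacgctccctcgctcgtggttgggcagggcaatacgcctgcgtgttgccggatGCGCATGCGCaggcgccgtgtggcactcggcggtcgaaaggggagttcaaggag

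In ATP5C1 and NDUFA8 the NRF1 letters form a palindrome, so that the matches on both strands overlap by all but 1 base. Counted from the transcription start, they began at -22 in ATP5C1 and at -4 in NDUFA8, the ETS letters of NDUFS1 at -157, and the YY1 letters of UQCRC1 at 24. Among the 65 members, 10 windows (15.4%) held the NRF1 letters, 18 (27.7%) the ETS letters and 8 (12.3%) the YY1 letters. Over all 27305 promoters of the table these shares were 2.1%, 10.7% and 1.85%, and over the promoters of 11526 tested genes 3.67%, 18.3% and 3.72%. By complex, the NRF1 letters were in 4 of 11 windows of complex V and in 0 of 7 of complex III. Of the 46 members with a window that fell in MB468, 20 (43.5%) held at least 1 of the 3, and of the 13 tested members that did not, 8 (61.5%) did. A match is a run of letters and not a measured site.

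Shortly after the switch few members moved. In MB468 at 0.5 h 1 of 72 members was called, against 33.9% of all genes in either direction, and 2 were called without replicate 1 of MB468 at 0 h or without replicate 1 at 0.5 h. The called member was UQCRB, the ubiquinone-binding protein of complex III, which rose from 2024, 1998 and 1907 to 2301, 2448 and 2218 normalized counts, a log2 fold change of 0.23 ± 0.0472 (SE, edgeR adjusted p = 1.10e-04), without overlap. In MB468res-R8 at 0.5 h 2 members were called, against 33.7% of all genes. SDHD rose by 0.12 ± 0.0452 (SE, edgeR adjusted p = 0.0401) on the log2 scale and NDUFA7, a small accessory subunit of complex I, had a log2 fold change of -0.19 ± 0.0747 (SE, edgeR adjusted p = 0.0437), and neither was called when any 1 of the 6 libraries was left out, with log2 fold changes of 0.11 to 0.13 and -0.22 to -0.18. No member was called without replicate 2 at 0 h, 1 other member without replicate 3 at 0 h or replicate 2 at 0.5 h, and 2 or 3 others without the remaining libraries. UQCRB in MB468res-R8 had a log2 fold change of 0.06 ± 0.0472, which was not called.

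At 2 h in MB468 2 members were called, against 16.3% of all genes. UQCRH rose, with 7179, 7454 and 6866 normalized counts at 0 h, 7712, 7702 and 7897 at 2 h, its log2 change being 0.12 ± 0.0384 (SE, edgeR adjusted p = 0.0310). NDUFV3 fell at this time from 1016, 1009 and 927 to 857, 828 and 858, a log2 fold change of -0.22 ± 0.0589 (SE, edgeR adjusted p = 0.00665), before its rise at 12 h. The scaling mattered here. With spike-in totals as library sizes the median of all genes in MB468 moved to -0.42 at 2 h and to -0.20 at 0.5 h. The members' medians lay near these, at -0.41 and -0.20. On this scale 71 members were called at 2 h, and UQCRH turned to -0.30. The share of all genes called was not counted there, so the 71 calls cannot be set apart from the shift of all genes. In 1 library of this group, replicate 2, the small RNA RN7SK had 8251 counts against at most 357 in the other 23 libraries. Leaving out replicate 1 or replicate 3 of MB468 at 0 h left 1 called member, and UQCRH lost its call without either of these or without replicate 3 at 2 h (0.083 to 0.12).

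In MB468res-R8 at 2 h 0 members were called by edgeR, against 4.37% of all genes, with 6 members at an unadjusted p under 0.05 and 1 called by DESeq2's Wald test, and log2 fold changes between -0.20 and 0.15. Without replicate 3 of MB468res-R8 at 0 h 1 was called. For the difference between the lines at 0.5 h 0 members were called, against 2.9% of all genes, with 1 member at an unadjusted p under 0.05 and 0 called by DESeq2. For the difference at 2 h 0 were called by edgeR, against 5.07% of all genes, with 2 at an unadjusted p under 0.05 and 0 called by DESeq2. The median difference of the members was -0.01 at 0.5 h and 0.0039 at 2 h on the TMM scale, and 0.25 and 0.38 with spike-in library sizes, where the medians of all genes were 0.26 and 0.38.

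Before the switch, in Met+ medium, 21 members were higher and 11 lower in MB468res-R8 than in MB468, while 26.4% of all genes were called higher and 27.1% lower. The median difference of the members was 0.05 on the log2 scale, and it lay between 0.01 (complex II) and 0.10 (complex IV) by complex. Without replicate 2 of MB468res-R8 at 0 h 5 members were called lower. With spike-in totals as library sizes the median of all genes at 0 h moved to -0.31, 1 member was called higher and 24 lower, and the members' median was -0.26, so these directions hold relative to the other genes of each library.

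NDUFA4 had the largest difference at 0 h, with 2091, 2157 and 1994 normalized counts in MB468 and 3839.8, 3671 and 3831 in MB468res-R8. The ranges were far apart at every time, and at 0 h the log2 difference was 0.86 ± 0.0510 (SE, edgeR adjusted p = 6.44e-18). It is the member called higher also with spike-in library sizes. NDUFA12, an accessory subunit of the peripheral arm, had 442, 471 and 492 and 627, 594 and 655 normalized counts, a log2 difference of 0.42 ± 0.0913 (SE, edgeR adjusted p = 1.79e-04), and NDUFA9 and NDUFA10, also of complex I, differed by 0.35 ± 0.0521 and 0.32 ± 0.0498. ATP5J2, subunit f of complex V, had 1101, 1092 and 1225 normalized counts in MB468 and 714, 647 and 722 in MB468res-R8, a log2 difference of -0.71 ± 0.0633 (SE, edgeR adjusted p = 1.38e-12). It overlaps a read-through entry, so its reads could be split. NDUFA5, ATP5E (the epsilon subunit of the central stalk) and NDUFS5 were lower by -0.40 ± 0.0671, -0.31 ± 0.0923 and -0.15 ± 0.0398 on the log2 scale. Of the core subunits, SDHB and UQCRC1 were higher in MB468res-R8 on the TMM scale and turned to -0.20 and -0.17 with spike-in library sizes, NDUFS1, NDUFV1 and SDHC were lower, and SDHA, SDHD, UQCRC2, UQCRFS1, COX5A, COX5B, ATP5A1 and ATP5B were not called. SDHB lost its call without any 1 library of MB468 or replicate 1 or 2 of MB468res-R8 (0.076 to 0.11), and NDUFV1 without replicate 1 or 2 of MB468 or replicate 2 or 3 of MB468res-R8 (-0.099 to -0.086). NDUFS1 was not called without replicate 1 of MB468 (-0.090) or replicate 2 of MB468res-R8 (-0.072), SDHC without the latter (-0.097), and UQCRC1 without replicate 1 of MB468res-R8 (0.11), the library without which COX5A was called lower (-0.21).

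MB468res-R8 is 1 clone, so each member was also set beside its chromosomal neighbours, the tested genes within 2 Mb. Around NDUFA4 on chromosome 7 (10931943 to 10940153, GRCh38.p14) 6 of 6 neighbours were above 0 at 0 h, with a median log2 difference of 0.86. Around ATP5J2, on the same chromosome (99458195 to 99466167), 76 of 79 neighbours were below 0, with a median of -0.52. The neighbourhoods of NDUFA10 (median 0.31), NDUFA9 (0.22), NDUFA12 (0.16), NDUFA5 (-0.29), ATP5E (-0.38) and NDUFS5 (-0.18) also had the sign of the member. Some members differed much less than their neighbourhoods. The neighbourhood medians were -0.67 for NDUFS1, -0.54 for NDUFB2, 0.52 for SDHB and 0.52 for UQCRHL. The members themselves differed by -0.13, -0.25, 0.11 and 0.11, the last not called. Over all tested members the sign was shared by 13 of the 21 called higher, 9 of the 11 called lower and 25 of the 40 not called. Whether copy number differs between the lines was not tested.

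**Figure D4:**
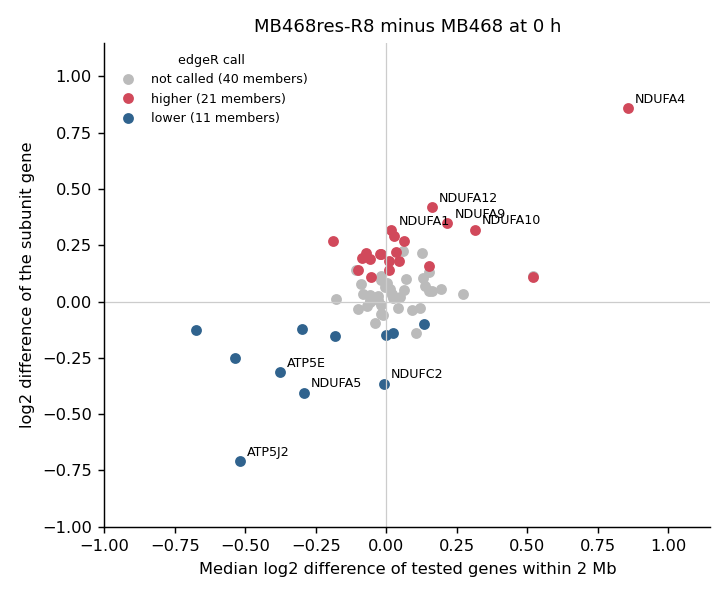
Log2 difference of each tested member between MB468res-R8 and MB468 at 0 h (vertical axis) against the median log2 difference of the tested genes within 2 Mb of it (horizontal axis), by edgeR call on the TMM scale. NDUFA4 stands at 0.86 on both axes and ATP5J2 at -0.71 with a neighbourhood median of -0.52, while most other members lie near 0 on the horizontal axis. NDUFS1 (-0.67), NDUFB2 (-0.54), SDHB (0.52) and UQCRHL (0.52) lie far from 0 on that axis with smaller differences of their own.

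Several subunits exist as isoforms encoded by separate genes. In these cells the ubiquitous forms COX6A1, COX6B1, COX7A2, COX7B and COX8A were counted in every library. COX6A2, the heart and muscle form, and COX8C had 0 counts in all 24 libraries, where counting error allows up to 3 counts in a library. COX7A1, another muscle form, had at most 4 counts in a library, COX6B2, a testis form, at most 6, COX7B2 at most 3 and ATP5L2 at most 2. NDUFA3 and NDUFA6, subunits of complex I in all tissues, also failed the filter, with at most 25 and 8 counts in a library. Such counts do not show that the genes are silent.

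ATP5G1, ATP5G2 and ATP5G3 encode the same mature c subunit of the rotor ring with different import sequences. In MB468 all 3 fell at 12 h, with log2 fold changes of -0.22, -0.51 and -0.52. In MB468res-R8 ATP5G2 fell from 2870.0, 2874 and 2908 to 2548, 2463 and 2449.7 normalized counts (-0.21 ± 0.0472), whereas ATP5G1 (0.23 ± 0.0651) and ATP5G3 (0.11 ± 0.0422) rose. With spike-in library sizes 3 of the 3 were called lower in MB468 and 0 were called in MB468res-R8, and without replicate 2 of MB468res-R8 at 0 h ATP5G3 was not called there (0.073). On the TMM scale all 3 were called for the difference, at 0.45, 0.29 and 0.63.

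Other genes of mitochondrial energy metabolism were taken from hand-written lists, whose medians and counts are descriptions on the TMM scale. The shares of all genes to read them against at 12 h were 36.1% called higher and 34.7% lower in MB468, and 30.2% higher and 31.1% lower in MB468res-R8. The TCA cycle list also held genes outside the cycle proper, namely PC (pyruvate carboxylase), PDHA1, PDHB, DLAT and PDHX. At 12 h in MB468 18 of its 19 genes fell and 0 rose (median -0.34). The falls were led by PC (-1.32) and IDH2, the NADP-dependent mitochondrial isocitrate dehydrogenase (-1.20). In MB468res-R8 5 rose, among them IDH3A (0.48) and FH (0.31), and 6 fell, led again by PC (-1.13) and by OGDH (-0.42), counts near the shares of all genes. For the difference 17 of 19 were called higher and 1 lower, against 26.2% and 30.3% of all genes. With spike-in totals as library sizes 18 fell in MB468, at a median of -0.57, and 3 rose and 3 fell in MB468res-R8. Of 9 tested subunit and carrier genes outside the naming scheme, 4 fell in MB468, led by NDUFA4L2, a paralog of NDUFA4 (-0.86), and NDUFAB1, the mitochondrial acyl carrier protein (-0.47). In MB468res-R8 3 rose, led by CYCS, cytochrome c (0.49), and NDUFAB1 (0.36), and 3 fell, led by NDUFA4L2 (-2.72 ± 0.456, SE) and COX4I1 (-0.19, not called with spike-in library sizes).

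Assembly factors, which build the complexes without being part of them, had a median of the opposite sign to the subunits in MB468 on the TMM scale. Of 54 tested factors 27 rose and 15 fell at 12 h in MB468 (36.1% and 34.7% of all genes), with a median of 0.16 that turned to -0.078 (9 higher, 18 lower) with spike-in totals as library sizes. On the spike-in scale the median of all genes in MB468 lay further below 0 than that of these factors. In MB468res-R8 30 rose and 6 fell (30.2% and 31.1% of all genes), with a median of 0.21 (18 higher, 2 lower and 0.23 with spike-ins). In MB468 the copper chaperone SCO2 (1.73) and PET117 (1.06) of complex IV, NDUFAF4 (1.03) and NDUFAF1 (0.71) of complex I, and TMEM70 of ATP synthase (0.50) rose, the last not called with spike-ins. UQCC2 of complex III (-0.86), SDHAF1 of complex II (-0.86), COX20 of complex IV (-0.52) and TIMMDC1 of complex I (-0.44) fell. In MB468res-R8 NDUFAF4 (0.72), LYRM7 (0.67) and SCO1 (0.58) rose, and FOXRED1 (-0.39) and SURF1 (-0.40) fell.

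Of 76 tested genes for mitochondrial ribosomal proteins, which translate the mitochondrially encoded subunits, 40 rose and 18 fell in MB468 (median 0.13, turning to -0.11 with 14 higher and 20 lower by spike-in library sizes), and 52 rose and 4 fell in MB468res-R8 (median 0.26), where 35 rose and 0 fell by spike-in library sizes. With spike-in library sizes the median of all genes in MB468 lay further below 0 than the -0.11 of these genes. The shares of all genes called higher and lower were 36.1% and 34.7% in MB468 and 30.2% and 31.1% in MB468res-R8. MRPS17 rose by 1.12 and MRPS6 had a log2 fold change of -0.76 in MB468. Cytosolic ribosomal protein genes had the same direction as the OXPHOS subunits in MB468, where 71 of 82 fell and 2 rose (median -0.40), and in MB468res-R8 44 rose and 1 fell (median 0.13). By spike-in library sizes 75 of the 82 fell in MB468, at a median of -0.63, and 16 rose in MB468res-R8.

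Of 19 nuclear regulators of OXPHOS genes and mitochondrial DNA, 13 rose and 1 fell at 12 h in each line, against 36.1% and 34.7% of all genes in MB468 and 30.2% and 31.1% in MB468res-R8, with medians of 0.29 in MB468 and 0.29 in MB468res-R8. With spike-in totals as library sizes 7 rose and 2 fell in MB468, at a median of 0.046, and 8 rose and 0 fell in MB468res-R8, at 0.31. In MB468 C10orf2, the mitochondrial DNA helicase Twinkle (1.32), and the coactivator PPARGC1A (1.29) rose, and PPARGC1B fell (-0.31). The factors behind the searched motifs rose as well in MB468, with NRF1 at 0.51, GABPA at 0.54 and YY1 at 0.93, where NRF1 was not called with spike-in library sizes (0.27). These were chosen after their values were seen. In MB468res-R8 POLG2, the accessory subunit of the mitochondrial DNA polymerase (0.72), and NRF1 (0.69) led the rises and MYC fell (-0.27), a call lost with spike-in library sizes. PPARGC1A averaged 3.14 ± 0.556 CPM (SD, n = 3) in MB468 at 0 h and 7.78 ± 0.145 CPM at 12 h, and 0.0192 ± 0.0332 CPM in MB468res-R8 at 0 h, with 0 counts in its libraries at 2 and 12 h.

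**Figure D5:**
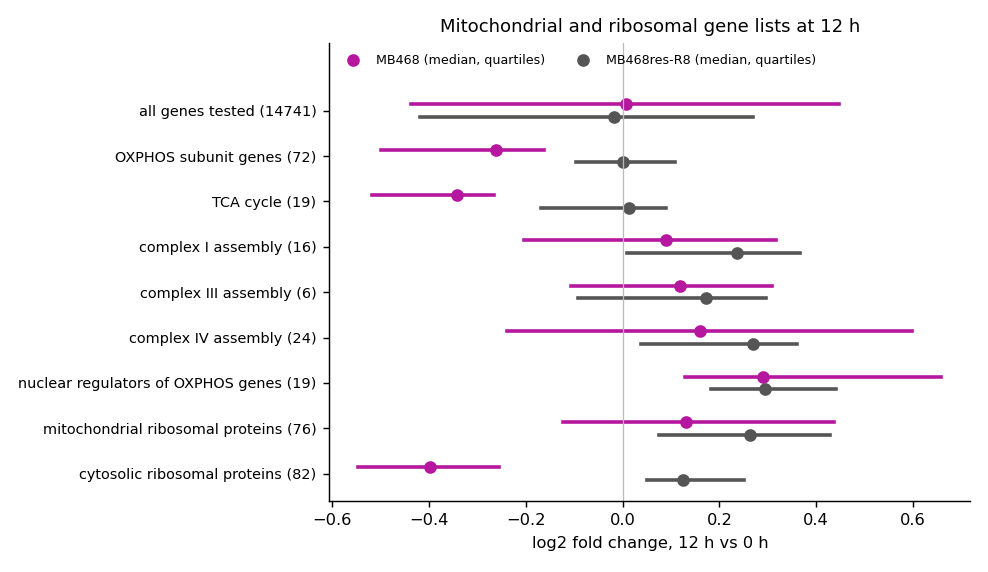
Median (points) and quartiles (bars) over genes of the log2 fold change at 12 h against 0 h in MB468 and MB468res-R8, for all tested genes, the OXPHOS subunit genes and 7 other lists, with the number of tested genes in parentheses (TMM scale). The subunits, the TCA cycle and the cytosolic ribosomal proteins lie below 0 in MB468, with medians of -0.26, -0.34 and -0.40. The mitochondrial ribosomal proteins and the assembly factors of complexes I, III and IV lie above 0. With spike-in library sizes these turn below 0 in MB468 (-0.11 for the former, -0.078 for all assembly factors). On that scale the median of all genes in MB468 lies further below 0.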

How the data were processed

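Poly(A) RNA of 24 libraries was sequenced with added spike-in RNAs. The authors aligned the reads with HISAT2 2.1.0 to GRCh38/hg38 plus the spike-ins, and gene counts came from featureCounts (Subread 1.5.3), per the submitters' processing notes and the methods. The authors deposited raw counts for 26645 gene entries, which were used here. The deposited normalized matrix and the table of the authors' own comparison were not used.

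The tests used edgeR 4.0.16 under R 4.3.3. filterByExpr (minimum count 10, minimum total 15) kept 14741 genes, and a robust quasi-likelihood fit of 8 group means gave 10 comparisons, adjusted by Benjamini-Hochberg over all tested genes. An adjusted p under 0.05 is a call. Core subunits, isoform sets, and the 4 largest called changes per direction without overlap (at 0.5 and 2 h the 2 smallest p) were named, in other lists the 2 largest per direction. The members, lists and rules were chosen with earlier results of these data known. Positions and promoters came from RefSeq. Alternatives included DESeq2 1.42.0, spike-in totals as library sizes, other filters, fits to fewer libraries, a replicate block, and leaving out each library. The code was tested on simulated data. Counts and medians cover all tested members, of which 1 is not reported here by name. Replicates differed by more than sampling noise, with a chi-square per degree of freedom of at least 2.26. Counting intervals do not cover technical error.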

Additional observations from a re-analysis of the deposited data

Results flagged for a closer look

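The responses of MB468 and MB468res-R8 to 12 h of Met-Hcy+ medium differed in 22 of the named members by the edgeR contrast of both responses in 1 model (adjusted p under 0.05 over all tested genes). The log2 fold change of MB468res-R8 exceeded that of MB468 in 20 of them, by these log2 differences: ATP5C1 (1.09), NDUFS1 (0.86), UQCR11 (0.81), NDUFV2 (0.78), SDHC (0.71), ATP5A1 (0.69), UQCRC1 (0.65), UQCRC2 (0.65), ATP5G3 (0.63), SDHB (0.52), COX7B (0.50), ATP5G1 (0.45), UQCRFS1 (0.37), SDHA (0.36), COX5A (0.35), ATP5B (0.31), ATP5G2 (0.29), NDUFA4 (0.26), SDHD (0.26) and COX6B1 (0.23). The difference was below 0 in 2, NDUFA13 (-0.25) and COX8A (-0.16). ATP5C1, UQCR11, NDUFV2 and NDUFA13 entered this list through their large called change in this same contrast. The count of 22 is therefore no measure of how often members differed. Of all 72 tested members 51 were called higher and 2 lower, against 26.2% and 30.3% of all genes. Of the markers of other cell types, PTPRC and COL1A2 were near 0 in all libraries, whereas COL1A1 lay between 14.6 and 73.2 CPM and PECAM1 between 0.344 and 2.67 CPM, and their part in these differences was not tested. With 3 libraries per group, single libraries that stand apart within a group were not looked for by a test.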

How the results depend on the processing

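At an adjusted p under 0.01, 5 members were lower at 0 h, 0 were called in MB468res-R8 at 0.5 h, 1 in MB468 at 2 h, 8 were higher in MB468res-R8 at 12 h, and 1 was lower for the 12 h difference. With DESeq2's size factors the MB468 median at 12 h was -0.29, and the 12 h difference had 1 lower member and a median of 0.34. DESeq2's Wald test gave -0.29, 1 and 0.33 for these, and 1 call in MB468res-R8 at 2 h. Spike-in totals as library sizes moved most results: 1 higher and 24 lower at 0 h (median -0.26), medians of -0.20 and 0.063 at 0.5 h in MB468 and MB468res-R8 with 0 calls in the latter, a 0.5 h difference of 0.25, 71 calls and a median of -0.41 in MB468 at 2 h, a median of -0.020 in MB468res-R8 at 2 h, 1 call and a median of 0.38 for the 2 h difference, 0 higher and a median of -0.50 in MB468 at 12 h, 2 higher and 1 lower in MB468res-R8 at 12 h, and 0 lower and a median of 0.57 for the 12 h difference. It reversed ATP5G2 (-0.092), ATP5G3 (-0.20), COX6A1 (-0.12), COX8A (-0.13), SDHB (-0.20) and UQCRC1 (-0.17) at 0 h, UQCRH at 2 h (-0.30), NDUFV3 in MB468 at 12 h (-0.00462), and NDUFA13 (0.0055) and COX8A (0.10) for the 12 h difference. The cause was not tested. Without a filter 3 and 4 members were called at 0.5 h in MB468 and MB468res-R8, 1 for the 0.5 h difference and 1 in MB468 at 2 h. With at least 10 counts in every library the MB468 median at 12 h was -0.28. Fits to only the groups compared gave 9 calls in MB468res-R8 at 0.5 h, 1 in MB468 at 2 h and a median of -0.28 in MB468 at 12 h.

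Leaving out 1 library at a time gave these ranges. The 0.5 h difference gave a median of -0.017 to 0.022 and 0 calls. The 12 h difference gave a median of 0.28 to 0.39, 46 to 52 higher and 1 to 2 lower. The 2 h difference gave a median of -0.029 to 0.033 and 0 calls. MB468 at 0.5 h versus 0 h gave a median of -0.0066 to 0.020 and 1 to 2 calls. MB468 at 12 h versus 0 h gave a median of -0.32 to -0.27, 1 higher and 54 to 57 lower. MB468 at 2 h versus 0 h gave a median of -0.023 to 0.045 and 1 to 3 calls. MB468res-R8 at 0.5 h versus 0 h gave a median of -0.011 to 0.024 and 0 to 3 calls. MB468res-R8 at 12 h versus 0 h gave a median of -0.026 to 0.044, 10 to 21 higher and 10 to 15 lower. MB468res-R8 at 2 h versus 0 h gave a median of 0.0034 to 0.044 and 0 to 1 calls. MB468res-R8 versus MB468 at 0 h gave a median of 0.026 to 0.076, 17 to 23 higher and 5 to 12 lower.

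The replicate numbers showed no pairing common to all comparisons. Over 6391 genes, the mean correlation of same-numbered libraries' deviations ranged from -0.15 (MB468res-R8 at 12 h) to 0.28 (MB468res-R8 at 2 h). For other-numbered libraries these means were 0.072 and -0.14. In every comparison at least 1 same-numbered pair lay below 0.1, whereas the highest pair reached 0.47 (MB468res-R8 at 2 h). Whether a number marks a shared batch is not stated in the labels and was not tested. With the replicate number as a block, 57 members were lower and 1 higher in MB468 at 12 h, 48 higher and 2 lower for the 12 h difference, 17 higher and 12 lower in MB468res-R8 at 12 h, and 22 higher and 11 lower at 0 h. Adding ATP5S and ATP5SL, an alternative chosen after seeing the data, and placing NDUFA4 with complex I moved none of the counts by over 1.5 times. Depth limits the statements on members with few counts.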
